A study of Mus musculus with 15 samples.

Results

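The mitosis genes examined here are 44 genes whose products carry cells from the end of G2 through chromosome segregation and cytokinesis. Of these, 43 had a probe set that the array annotation assigned to that gene alone, among 18193 genes with such a probe set. The cyclin B1 gene Ccnb1 had none and was not analysed here. Each gene was represented by the probe set that was brightest on average over all 15 arrays. Its other probe sets, 53 for 30 of the genes, were used as a check.

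At mitotic entry, the kinase CDK1 bound to A- and B-type cyclins is switched on by CDC25 phosphatases, and Polo and Aurora kinases then help to build the spindle. Kinetochores attach chromosomes to spindle microtubules, and the spindle assembly checkpoint holds back the anaphase-promoting complex with its activator CDC20 until attachment is complete. Transcripts of these genes accumulate late in the cell cycle, so in a mixed population their level follows how many cells are dividing and how much of each message a dividing cell holds. In bulk RNA, fewer dividing cells and less RNA per cell cannot be told apart.

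Expression was measured in myeloid cells of C57Bl/6 mice on 15 one-colour Affymetrix arrays, and the animals were at steady state per the labels. The cells came from bone marrow, except that the tissue of 1 array, titled Spl, is unclear. The sorted groups, 2 arrays each, were precursors of classical dendritic cells (pre-cDC; CD117 low, CD135+, CD11c+, CD16/32-), common dendritic cell progenitors (CDP; CD117 intermediate, CD135+, CD11c-, CD16/32-), granulocyte-macrophage progenitors (GMP; CD117 high, CD135-, CD11c-, CD16/32+) and common myeloid progenitors (CMP; CD117 high, CD135+, CD11c-, CD16/32-). Their titles carry WT1 or WT2, and the labels give no other genotype. All were gated as IL7R- and MHCII-, and the lineage-negative gate is stated for all but GMP. One further pre-cDC array has Spl in its title, while its cell type label reads bone marrow progenitor. Whole bone marrow was also cultured for 7 days, either in GM-CSF, from which non-adherent CD11c+ cells and adherent cells were taken, or in M-CSF, from which adherent cells were taken, with 1 array of each. Purified bone marrow monocytes were kept in GM-CSF, with 1 array each at 0, 24 and 48 h. Both factors were used at 20 ng/ml. GM-CSF and M-CSF are growth factors of myeloid cells. The monocytes had been purified by removing other cells, to over 90% CD11b and Ly6C positivity per the labels. Whether the arrays of a group hold RNA of different animals is not stated, and the p-values reflect the spread between these arrays alone, which may be technical.

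The deposited values are linear intensities whose scale differed between sets of arrays. The median of all probe sets was 15.95 to 17.44 on the 8 progenitor arrays, 74.17 on the Spl array, 24.09 to 25.66 on the culture arrays and 77.73 to 80.53 on the monocyte arrays, so values were compared only within a set. The number of arrays limits the precision. Kit and Flt3 levels followed the gates among progenitors, while genes of MHCII and IL7R were detected in groups gated as lacking these proteins. Kit, the gene of CD117, read 36.3 and 36.8 in pre-cDC, 368 and 335 in CDP, 905 and 1085 in GMP and 1229 and 1209.6 in CMP. Flt3, the gene of CD135, was low in GMP (35.9 and 31.8) and between 1193 and 1623 in the other groups. The MHCII gene H2-Aa read 4937 and 5539 in pre-cDC, 796 and 641 in CDP, 8.99 and 8.2 in GMP and 116 and 53.5 in CMP, so its message was high in pre-cDC in spite of the MHCII- gate. Il7r read 31.6 and 26.9 in pre-cDC, 109 and 94.8 in CDP, 11.4 and 8.53 in GMP and 29.2 and 28.3 in CMP, and CDP stood highest. On the Spl array Kit read 1105, far above the median of that array, and no sort of its cells is described.

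Promoters of mitosis genes often carry a cell cycle homology region (CHR), a short element through which the DREAM and MuvB complexes act, and CCAAT boxes bound by NF-Y. Genes of DNA replication more often carry sites of E2F factors. RefSeq gives promoter windows from 250 bases before to 50 bases after the annotated start, on GRCm38.p6, for 37 of the 43 measured mitosis genes. The stretches from 120 bases before to 30 bases after the start are shown for a selection of members that follows no single ranking. They are also shown for Pttg1, whose values departed most from the other members, and for Rfc4 and Mcm3, replication genes that moved the other way. Capitals mark the CHR core (TTTGAA), the NF-Y box (CCAAT) and either E2F core, spelled TTCCCGC or else TTGGCGC. All printed members except Pttg1 hold both the CHR core and CCAAT. Only 23 of the 37 windows held both, so the printed members do not stand for all. Both strands were searched, so that each also appears as its reverse complement, and no printed matches overlap. The stretches lie at chr10:69352883-69353032, minus strand for Cdk1, chr9:70421525-70421674, minus strand for Ccnb2, chr4:118437314-118437463, minus strand for Cdc20 and chr2:164769809-164769958, plus strand for Ube2c. Those of Kif23 (chr9:61946770-61946919, minus strand), Racgap1 (chr15:99651627-99651776, minus strand) and Pttg1 (chr11:43425952-43426101, minus strand) follow, and then Rfc4 (chr16:23127701-23127850, minus strand) and Mcm3 (chr1:20820283-20820432, minus strand).
Cdk1: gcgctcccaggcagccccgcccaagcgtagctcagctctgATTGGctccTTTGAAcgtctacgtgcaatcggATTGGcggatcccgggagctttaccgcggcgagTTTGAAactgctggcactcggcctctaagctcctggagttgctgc
Ccnb2: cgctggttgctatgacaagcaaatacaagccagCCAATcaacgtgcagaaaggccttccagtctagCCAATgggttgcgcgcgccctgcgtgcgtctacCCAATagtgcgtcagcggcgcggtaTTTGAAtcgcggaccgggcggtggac
Cdc20: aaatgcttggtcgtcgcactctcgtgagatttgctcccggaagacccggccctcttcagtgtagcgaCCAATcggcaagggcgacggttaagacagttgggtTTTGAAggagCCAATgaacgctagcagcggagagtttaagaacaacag
Ube2c: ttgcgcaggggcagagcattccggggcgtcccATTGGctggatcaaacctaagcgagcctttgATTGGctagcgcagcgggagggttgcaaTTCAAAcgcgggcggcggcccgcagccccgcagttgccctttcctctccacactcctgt
Kif23: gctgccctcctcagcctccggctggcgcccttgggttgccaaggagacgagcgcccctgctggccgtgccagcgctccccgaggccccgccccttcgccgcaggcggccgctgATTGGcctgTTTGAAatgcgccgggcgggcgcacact
Racgap1: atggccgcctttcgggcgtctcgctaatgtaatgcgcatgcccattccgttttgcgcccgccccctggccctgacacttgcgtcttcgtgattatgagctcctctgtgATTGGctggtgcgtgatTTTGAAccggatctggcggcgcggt
Pttg1: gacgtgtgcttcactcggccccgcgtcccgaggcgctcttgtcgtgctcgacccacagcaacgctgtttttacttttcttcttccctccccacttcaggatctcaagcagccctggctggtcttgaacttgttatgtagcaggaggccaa
Rfc4: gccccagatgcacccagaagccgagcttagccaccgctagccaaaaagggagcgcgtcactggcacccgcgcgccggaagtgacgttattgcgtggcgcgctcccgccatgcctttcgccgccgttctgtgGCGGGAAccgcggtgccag
Mcm3: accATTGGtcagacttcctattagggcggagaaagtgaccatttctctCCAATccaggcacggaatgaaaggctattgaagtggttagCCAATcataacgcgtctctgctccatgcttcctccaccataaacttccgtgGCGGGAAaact

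The CHR core stood in 26 of the 37 windows (70.3%), against 18.1% of 27025 mouse genes with a window. Within 50 bases of the start it stood in 64.9% of the mitosis genes and 4.92% of all genes. CCAAT was found in 75.7% of the mitosis genes and 37.9% of all genes, and CHR core and CCAAT together in 62.2% and 7.12%. An E2F core was found in 4 of the 37 windows (10.8%), those of Cdk1, Kif18a, Ect2 and Mki67, against 51.7% of 29 windows of DNA replication genes and 6.93% of all genes. The DNA replication genes held the CHR core in 20.7% of their windows. The windows of Mad2l1, Pttg1, Birc5, Nuf2 and Nusap1 held none of the searched motifs. For 32 of the 37 genes the window's start lay within 100 bases of the 5′ end of the RefSeq gene. The exceptions were Aurka (316 bases inside the gene), Ect2 (375), Cdc25b (512), Pttg1 (1482) and Kif2c (3852), so the windows of these genes, the printed one of Pttg1 included, surround an internal start. A match of these letters is a description of the window and shows no binding.

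**Figure D1:**
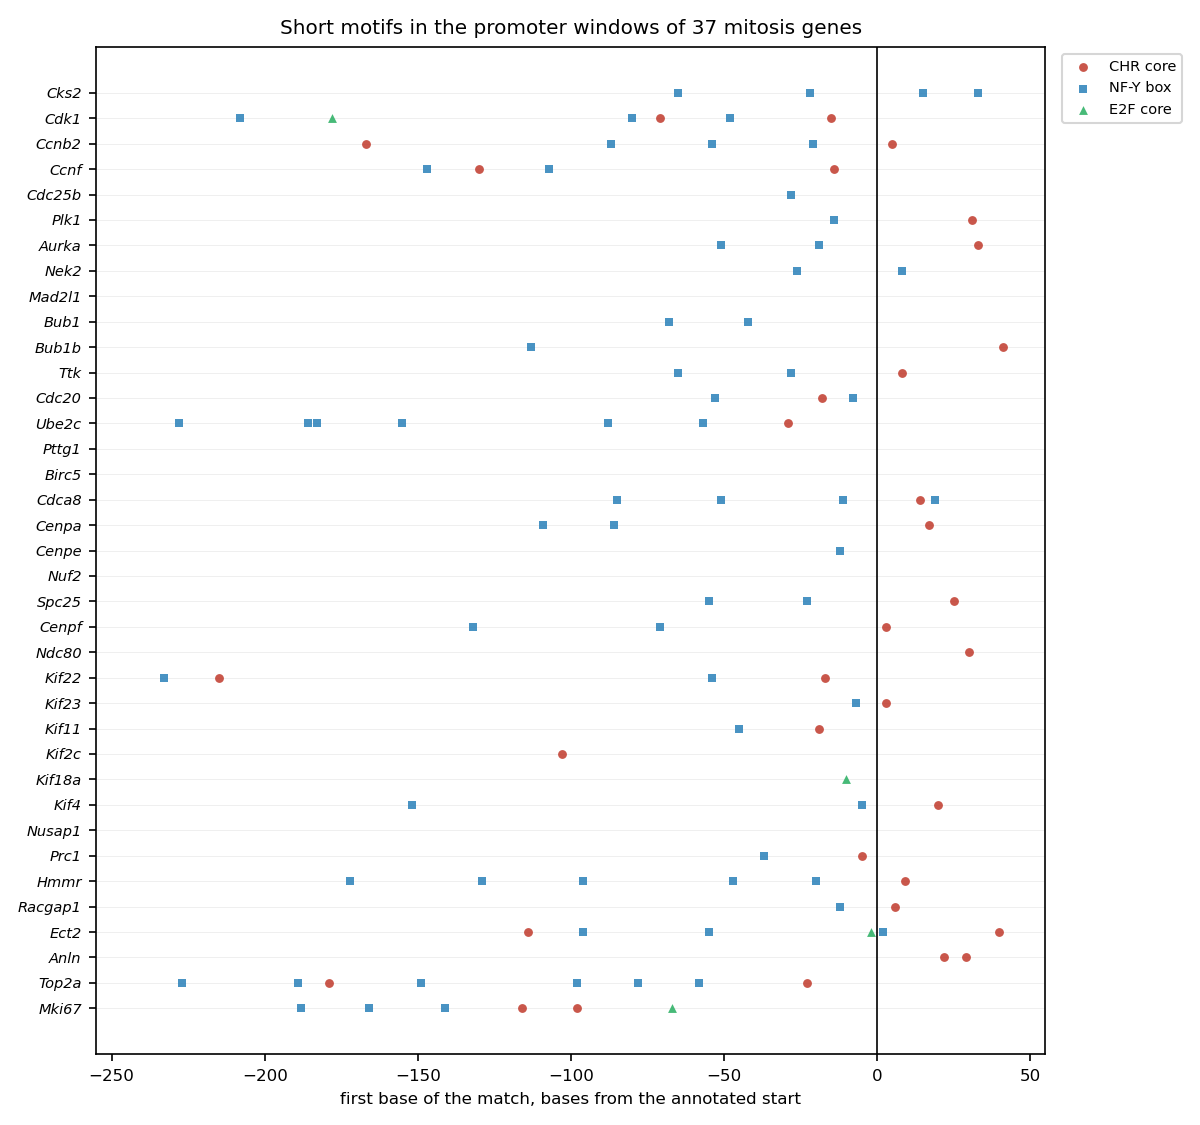
Position of short motifs in the RefSeq promoter windows of 37 mitosis genes, 1 row per gene; the horizontal axis gives the first base of each match in bases from the annotated start. CHR core matches (26 genes) have a median position of -1 and NF-Y boxes, the CCAAT matches (28 genes), a median position of -58, while E2F cores appear in 4 genes.

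By group mean of the chosen probe sets, 42 of 43 mitosis genes stood highest in pre-cDC, and Ttk was the exception. The share of all genes that stood highest in pre-cDC by group mean was not counted. All 43 exceeded the overall median of each of the 8 progenitor arrays, but that median was taken over probe sets and not over genes. Since each gene stands by its brightest probe set, this bar is low, and how many of all genes passed it was not counted. The lowest reading, that of Cdc25b on the first GMP array, was 28.63 against a median of 16.1. Among all genes of that array it stood at a percentile of 51.1. Against CMP, 39 of 43 rose in pre-cDC and 0 fell, with a median log2 difference of 0.86, where 19.1% of all genes rose, 23.0% fell and 42.2% passed the threshold in either direction. Against GMP, 39 rose and 0 fell (median 0.88; 21.0% of all genes rose, 23.1% fell, 44% called). Against CDP, 32 rose and 0 fell (median 0.49; 14.4% of all genes rose, 18.8% fell, 33.2% called). Here and below, differences are on the scale log2(intensity + 32), the p-values are from limma adjusted over all 18193 genes, and a gene is said to have risen or fallen when adjusted p was below 0.05.

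CDP held an intermediate place. In CDP against CMP 22 of 43 rose and 0 fell (median 0.36; 7.68% of all genes rose, 6.75% fell, 14.4% called), and in CDP against GMP 27 rose and 0 fell (median 0.42; 15.9% rose, 12.1% fell, 28.0% called). Over all genes the median difference lay between -0.01 and 0.00 in these comparisons. Both pre-cDC arrays stood above the 6 other arrays in 37 members, against 19.5% of all genes, and the exceptions were Cdk1, Mad2l1, Ttk, Aurkb, Spc25 and Ect2. Both CDP arrays stood above the 4 CMP and GMP arrays in 29 members, against 17.9% of all genes. The 5 comparisons share arrays and are not independent of each other. With 2 arrays a group the CDP counts were sensitive to single arrays. In CDP against CMP 5 members rose without CMP replicate 2, 6 without CDP replicate 1, 13 without CDP replicate 2 and 14 without CMP replicate 1. In CDP against GMP 12 rose without GMP replicate 1 and 17 without CDP replicate 1, and in pre-cDC against CDP 21 rose without CDP replicate 2.

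**Figure D2:**
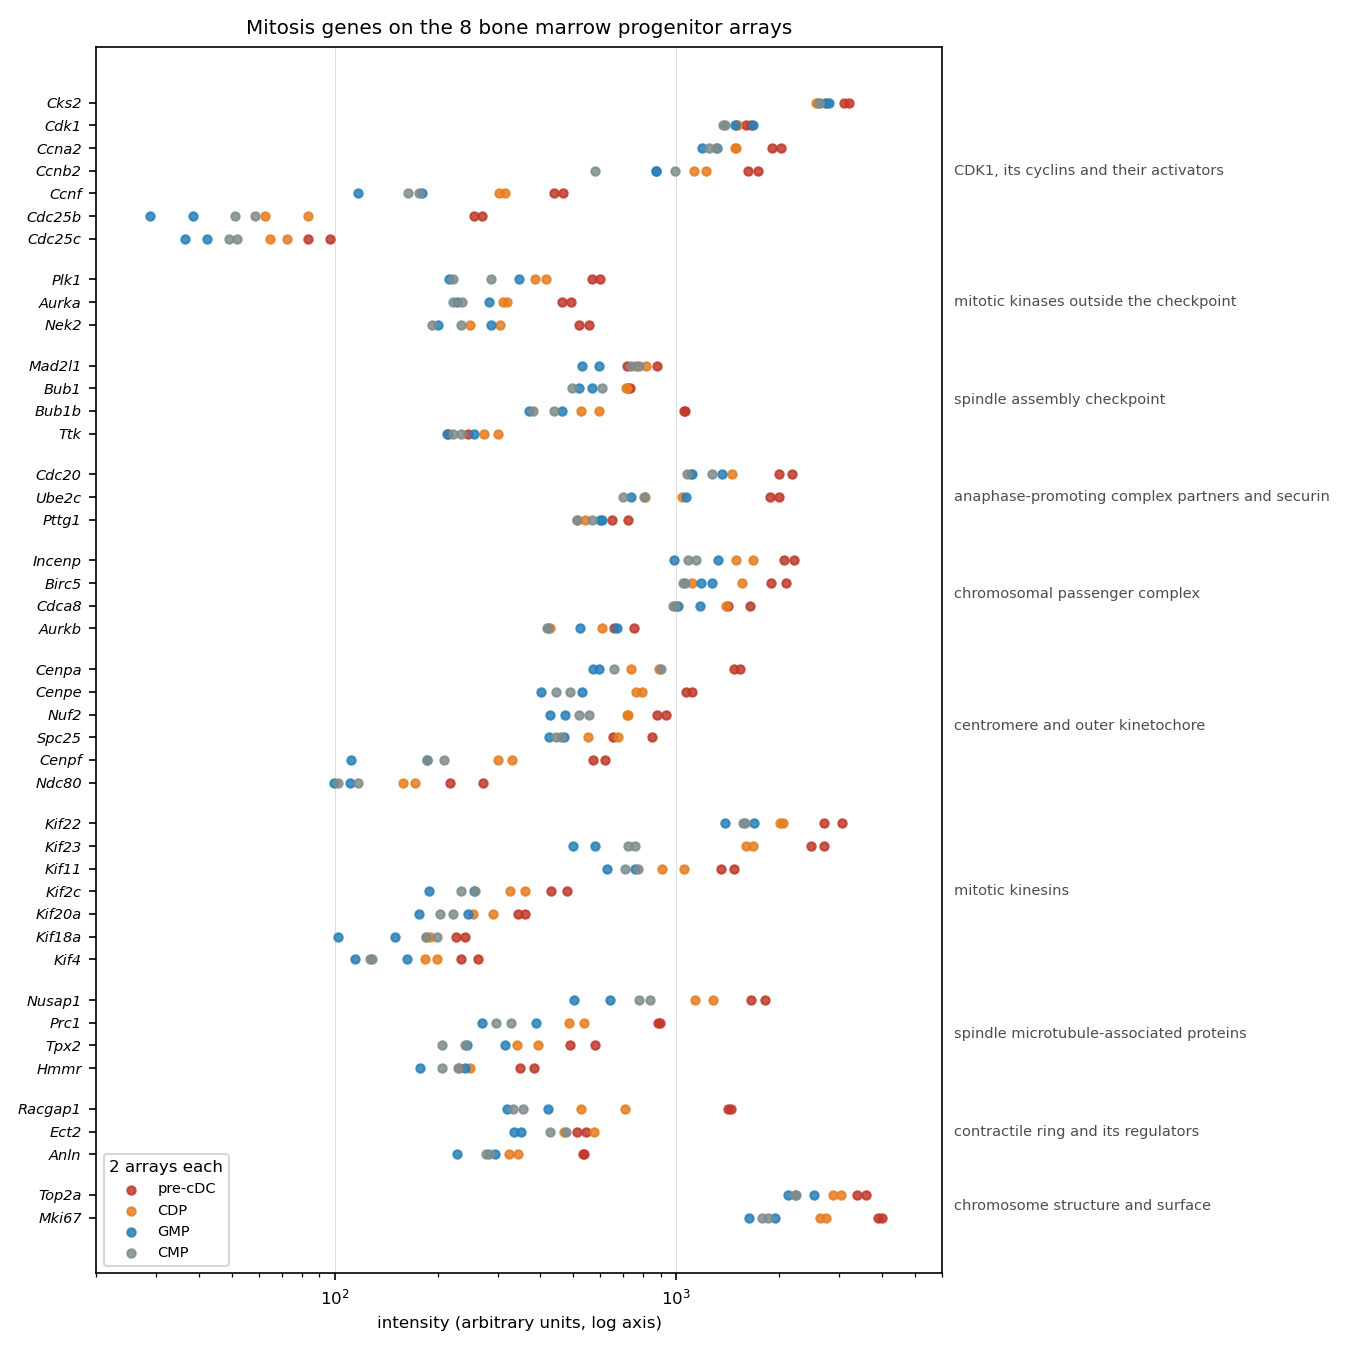
Intensity of the 43 measured mitosis genes on the 8 progenitor arrays (log axis, arbitrary units), 1 row per gene, grouped by role; each point is 1 array. Pre-cDC points lie to the right of all others in 37 rows, and levels of different genes come from different probe sets and are not comparable with each other.

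Among the genes grouped under mitotic entry (Cdk1, Ccna2, Ccnb2, Ccnf, Cdc25b, Cdc25c and Cks2), 5 of 7 rose in pre-cDC against CDP and 7 of 7 against CMP. Cdc25b read 269.8 and 256 in pre-cDC, 83.5 and 62.6 in CDP, 28.6 and 38.3 in GMP and 50.9 and 58.2 in CMP. Both pre-cDC arrays stood far above all others, and the GMP arrays were the lowest. This gene of a phosphatase that activates CDK1 rose more than any other member in pre-cDC against CDP (1.50, SE 0.124, adjusted p = 8.55e-07; 2.82-fold). Its CDP arrays exceeded both CMP arrays without passing the test (0.27, SE 0.124, adjusted p = 0.184). Ccnb2 read 1731 and 1619 in pre-cDC, 1223 and 1131 in CDP, 872 and 870.0 in GMP and 992 and 577 in CMP. The gene of cyclin B2 rose in pre-cDC against CDP (0.50, SE 0.172, adjusted p = 0.0409), and its CMP arrays differed more from each other than those of any other group. Ccnf read 467 and 439 in pre-cDC, 314 and 303 in CDP, 117 and 179.8 in GMP and 164 and 177 in CMP. Ccnf encodes cyclin F, the substrate receptor of a ubiquitin ligase, and rose in CDP against CMP (0.75, SE 0.144, adjusted p = 0.00321) and in pre-cDC against CDP (0.51, SE 0.144, adjusted p = 0.0146).

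Cdk1 itself moved little. Cdk1 read 1603 and 1662 in pre-cDC, 1506 and 1508 in CDP, 1489 and 1683 in GMP and 1368 and 1390.4 in CMP. The second GMP array was the highest of the 8, so that pre-cDC and GMP overlapped. In pre-cDC against CDP the difference was 0.11, SE 0.0826, adjusted p = 0.347 (95% interval -0.07 to 0.29), and of the pre-cDC comparisons only that against CMP showed a rise of Cdk1 (0.24, SE 0.0826, adjusted p = 0.0333). Cks2 read 3111 and 3204 in pre-cDC, 2571 and 2762 in CDP, 2729 and 2801 in GMP and 2617 and 2627 in CMP. Cks2, which encodes a small CDK-binding adaptor, rose in pre-cDC against CDP by 0.24, SE 0.0674 (adjusted p = 0.0136), while CDP, GMP and CMP lay close together. Cdc25c read 83.4 and 96.8 in pre-cDC, 72.3 and 64.7 in CDP, 36.3 and 42.1 in GMP and 51.8 and 49.0 in CMP. The phosphatase gene Cdc25c was among the lowest-ranked members on these arrays, and its difference in pre-cDC against CDP missed the threshold (0.28, SE 0.104, adjusted p = 0.0565), as Cdk1's did. The cyclin A2 gene Ccna2 rose in pre-cDC against CDP (0.39, SE 0.0829, adjusted p = 0.00232).

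The kinase genes Plk1, Aurka and Nek2 rose in pre-cDC against each of CDP, GMP and CMP. The kinase genes Cdk1 and Aurkb, grouped with other roles here, did not rise in every one of these comparisons. Cdk1 differed by 0.11 against CDP and 0.04 against GMP, and Aurkb by 0.24 against GMP. Plk1 read 599.5 and 566 in pre-cDC, 414 and 385 in CDP, 216 and 346 in GMP and 287 and 222 in CMP. Plk1, the Polo-like kinase of spindle assembly, had no overlap between pre-cDC and any other group (0.51, SE 0.169, adjusted p = 0.0335 against CDP), while its GMP and CMP arrays overlapped. Aurka, the spindle pole kinase, rose by 0.55, SE 0.114 (adjusted p = 0.00196) in pre-cDC against CDP. Nek2, a kinase of centrosome separation, rose by 0.88, SE 0.152 (adjusted p = 0.000485) in the same comparison, and in CDP against CMP its difference was 0.33 (adjusted p = 0.189).

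The spindle assembly checkpoint genes did not move as a block. Bub1b, whose product BUBR1 inhibits the anaphase-promoting complex, was the 1 of 4 that rose in pre-cDC against CDP. Bub1b read 1055 and 1059.8 in pre-cDC, 594 and 527 in CDP, 369.6 and 464 in GMP and 380.4 and 437 in CMP. Pre-cDC arrays were nearly equal and above both CDP arrays (0.88, SE 0.119, adjusted p = 6.83e-05; 1.84-fold). Mad2l1 read 878 and 716 in pre-cDC, 763 and 817 in CDP, 596 and 528 in GMP and 737 and 781 in CMP. Mad2l1 encodes MAD2, a core inhibitor of CDC20; pre-cDC, CDP and CMP overlapped, and only GMP was lower (-0.41, SE 0.111, adjusted p = 0.0209 against CMP). In pre-cDC against CDP the difference of Mad2l1 was 0.01 (95% interval -0.24 to 0.25). The kinase gene Bub1 differed by 0.03 (adjusted p = 0.885) there and rose in CDP against CMP (0.36, SE 0.107, adjusted p = 0.039). Its other, dimmer probe set gave 0.02 in CDP against CMP. In pre-cDC that probe set gave -0.25 against CDP, -0.23 against CMP and -0.27 against GMP, where the chosen one gave 0.03, 0.39 and 0.40. Ttk read 246 and 215 in pre-cDC, 273 and 299.8 in CDP, 213 and 256 in GMP and 234 and 222 in CMP. Ttk, the gene of the checkpoint kinase MPS1, was the 1 member whose chosen probe set did not have its highest group mean in pre-cDC. Both CDP arrays stood above both pre-cDC arrays, without passing the test (-0.28, SE 0.117, adjusted p = 0.0878). A second, dimmer probe set of Ttk went the other way, with 0.16 in pre-cDC against CDP, 0.49 against CMP and 0.51 against GMP.

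Of the 3 partners of the anaphase-promoting complex, 3 rose in pre-cDC against CDP, 3 against CMP and 2 against GMP. Cdc20 read 2187 and 2006 in pre-cDC, 1459.8 and 1106 in CDP, 1113 and 1359 in GMP and 1269 and 1074 in CMP. Cdc20, the activator that starts anaphase, rose in pre-cDC against CDP (0.71, SE 0.133, adjusted p = 0.000971), and its CDP, GMP and CMP arrays overlapped. Ube2c read 2005 and 1888 in pre-cDC, 1041 and 809 in CDP, 736 and 1072 in GMP and 802 and 697 in CMP. Ube2c, the ubiquitin-conjugating enzyme of the complex, was likewise highest in pre-cDC (1.06, SE 0.155, adjusted p = 0.000132; 2.08-fold), with 0.28, SE 0.155, adjusted p = 0.286 in CDP against CMP. Pttg1 read 721 and 649 in pre-cDC, 539 and 511 in CDP, 606 and 596 in GMP and 513 and 567 in CMP. Securin, encoded by Pttg1, guards separase until anaphase; it rose in pre-cDC against CDP (0.36, SE 0.0992, adjusted p = 0.0122) and against CMP (0.33, SE 0.0992, adjusted p = 0.0171), while its second probe set gave 0.09 and -0.10 there. Against GMP the difference of Pttg1 was 0.18, SE 0.0992, adjusted p = 0.177, and the second probe set was lower (-0.39, adjusted p = 0.00812). None of the 3 genes passed the test in CDP against CMP or in CDP against GMP.

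Of the chromosomal passenger complex, which corrects kinetochore attachments, 3 of 4 genes rose in pre-cDC against CDP and 1 of 4 in CDP against CMP. Incenp read 2064 and 2221 in pre-cDC, 1683 and 1493 in CDP, 988 and 1329 in GMP and 1084 and 1142 in CMP. Incenp, the scaffold of the complex, rose at both steps (0.43, SE 0.12, adjusted p = 0.014 in pre-cDC against CDP, and 0.50, SE 0.12, adjusted p = 0.013 in CDP against CMP). Birc5 read 2103 and 1897 in pre-cDC, 1559.7 and 1115 in CDP, 1181 and 1271 in GMP and 1047 and 1064 in CMP. Birc5 encodes survivin; its pre-cDC arrays were the highest (0.59, SE 0.127, adjusted p = 0.00265 against CDP), and 1 CDP array lay above and 1 below both GMP arrays. The kinase gene Aurkb rose in pre-cDC against CDP (0.44, SE 0.152, adjusted p = 0.0396), but its GMP arrays overlapped with pre-cDC (0.24, SE 0.152, adjusted p = 0.238). The borealin gene Cdca8 missed the threshold in pre-cDC against CDP (0.37, SE 0.136, adjusted p = 0.0568).

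Centromere and outer kinetochore genes rose in 5 of 6 cases in pre-cDC against CDP, in 6 of 6 in CDP against GMP, and in 4 of 6 in CDP against CMP. Cenpa read 1482 and 1543 in pre-cDC, 892 and 736 in CDP, 572 and 596 in GMP and 903 and 657 in CMP. Cenpa, the histone H3 variant of centromeres, rose in pre-cDC against CDP (0.87, SE 0.134, adjusted p = 0.000187), and CDP overlapped with CMP. Cenpf read 619.5 and 571 in pre-cDC, 331 and 299.7 in CDP, 111 and 186 in GMP and 209 and 186 in CMP. Cenpf, a large kinetochore protein gene, rose in pre-cDC against CDP (0.85, SE 0.161, adjusted p = 0.00101) and in CDP against CMP (0.60, SE 0.161, adjusted p = 0.0248), and its groups pre-cDC, CDP and CMP were fully separate. Ndc80 read 272 and 218 in pre-cDC, 171 and 158 in CDP, 99.4 and 111 in GMP and 117 and 102 in CMP. The NDC80 complex binds microtubules, and of its genes Ndc80 (0.49, SE 0.121, adjusted p = 0.00683) and Nuf2 (0.32, SE 0.0959, adjusted p = 0.0193) rose in pre-cDC against CDP. Spc25 read 849 and 652 in pre-cDC, 677 and 551 in CDP, 424 and 468 in GMP and 445 and 459 in CMP. Spc25, of the same complex, had 1 pre-cDC array below 1 CDP array and did not pass the test (0.27, SE 0.132, adjusted p = 0.143). The kinesin gene Cenpe, which moves chromosomes to the spindle equator, rose in CDP against CMP (0.70, SE 0.118, adjusted p = 0.00133) and in pre-cDC against CDP (0.47, SE 0.118, adjusted p = 0.00728).

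Mitotic kinesin genes included the member that most set CDP apart from CMP. Kif23 read 2482 and 2705 in pre-cDC, 1597 and 1684 in CDP, 498 and 577 in GMP and 721 and 755 in CMP. Kif23 encodes the motor of centralspindlin, which organises the cleavage site; its 4 groups did not overlap and GMP was the lowest. It rose 2.17-fold in CDP against CMP (1.12, SE 0.0943, adjusted p = 6.18e-06), 2.94-fold in CDP against GMP (1.56, SE 0.0943, adjusted p = 7.45e-08) and 1.57-fold in pre-cDC against CDP (0.65, SE 0.0943, adjusted p = 0.000121). Kif22 read 2709 and 3057 in pre-cDC, 2021 and 2062 in CDP, 1387 and 1694 in GMP and 1566 and 1592 in CMP. The chromokinesin gene Kif22 rose in pre-cDC against CDP (0.49, SE 0.0963, adjusted p = 0.00136) and in CDP against CMP (0.36, SE 0.0963, adjusted p = 0.0225). Kif11 read 1478 and 1358 in pre-cDC, 1054 and 908 in CDP, 626 and 757 in GMP and 773 and 709 in CMP. Kif11, the motor that pushes spindle poles apart, rose in pre-cDC against CDP (0.52, SE 0.112, adjusted p = 0.00254). Kif18a read 241 and 227 in pre-cDC, 185 and 191 in CDP, 102 and 150.4 in GMP and 199 and 186 in CMP. Kif18a dampens chromosome movement at the spindle equator; CDP and CMP overlapped, pre-cDC were slightly higher without passing the test (0.28, SE 0.135, adjusted p = 0.146 against CDP), and GMP were lower. The microtubule depolymerase gene Kif2c rose in pre-cDC against CDP (0.38, SE 0.131, adjusted p = 0.0425), and the midzone motor genes Kif20a (0.34, SE 0.134, adjusted p = 0.068) and Kif4 (0.33, SE 0.133, adjusted p = 0.0764) did not pass the test.

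Spindle microtubule-associated protein genes rose in 4 of 4 cases in pre-cDC against CDP and in 3 of 4 in CDP against CMP. Nusap1 read 1823 and 1655 in pre-cDC, 1280.3 and 1137 in CDP, 503 and 641 in GMP and 838 and 779 in CMP. Nusap1, which bundles and stabilises spindle microtubules, was separate in all 4 groups (0.51, SE 0.115, adjusted p = 0.00342 in pre-cDC against CDP, and 1.05, SE 0.115, adjusted p = 1.77e-05 in CDP against GMP). Prc1, which bundles antiparallel microtubules of the midzone, rose by 0.77, SE 0.139 (adjusted p = 0.000702) in pre-cDC against CDP and by 0.66, SE 0.139 (adjusted p = 0.006) in CDP against CMP. Tpx2, the activator of Aurora A, rose by 0.50 and 0.65 in these comparisons (adjusted p = 0.0126 and 0.00591). Hmmr, a spindle pole protein gene, rose in pre-cDC against CDP (0.55, SE 0.13, adjusted p = 0.00488) and did not pass the test in CDP against CMP (0.12, SE 0.13, adjusted p = 0.634).

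Among genes of cytokinesis, Racgap1 showed the largest difference of any member between pre-cDC and CMP. Racgap1 read 1419 and 1448 in pre-cDC, 708 and 528 in CDP, 320.1 and 420.4 in GMP and 333 and 355 in CMP. Racgap1 encodes the GTPase-activating partner of KIF23 in centralspindlin. Pre-cDC stood above CDP (1.19, SE 0.142, adjusted p = 2.25e-05; 2.28-fold), CDP above CMP (0.78, SE 0.142, adjusted p = 0.00235), and GMP overlapped with CMP; pre-cDC against CMP came to 3.9-fold (1.96, SE 0.142, adjusted p = 1.12e-07). Anln read 536 and 535 in pre-cDC, 344 and 323 in CDP, 227 and 295 in GMP and 283 and 277 in CMP. The anillin gene Anln rose in pre-cDC against CDP (0.63, SE 0.118, adjusted p = 0.000881), with nearly equal pre-cDC arrays. Ect2, the exchange factor that activates RhoA at the cleavage site, did not differ beyond the spread in pre-cDC against CDP (0.02, SE 0.113, adjusted p = 0.936) and rose in CDP against GMP (0.56, SE 0.113, adjusted p = 0.00222).

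The proliferation marker Mki67, whose product coats mitotic chromosomes, and Top2a, the topoisomerase that untangles them, rose at both steps. Mki67 read 3913 and 4009 in pre-cDC, 2636 and 2739 in CDP, 1637 and 1949.5 in GMP and 1853 and 1788 in CMP. The groups pre-cDC, CDP and CMP were separate, and GMP arrays lay on either side of CMP. Mki67 rose in pre-cDC against CDP (0.55, SE 0.0839, adjusted p = 0.000172) and in CDP against CMP (0.55, SE 0.0839, adjusted p = 0.00062). Top2a read 3597 and 3396 in pre-cDC, 2882 and 3039 in CDP, 2122 and 2536 in GMP and 2249.9 and 2224 in CMP. Top2a rose less, by 0.24, SE 0.0845 (adjusted p = 0.0462) and 0.40, SE 0.0845 (adjusted p = 0.00617) in the same comparisons.

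In GMP against CMP the share of mitosis genes called was near that of all genes. Of 43 members, 6 fell in GMP against CMP and 0 rose, where 9.76% of all genes fell, 7.00% rose and 16.8% were called; at an unadjusted p under 0.05 in limma, 9 fell and 2 rose. The 6 were Kif18a (-0.52, SE 0.135, adjusted p = 0.0175), Nusap1 (-0.48, SE 0.115, adjusted p = 0.0104), Kif23 (-0.44, SE 0.0943, adjusted p = 0.00557), Mad2l1, Cdc25b (-0.41, SE 0.124, adjusted p = 0.0396) and Ect2 (-0.37, SE 0.113, adjusted p = 0.0415). Over the 43 members the median difference was -0.02, and 20 were positive, beside 8674 of all 18193 genes. Aurkb had the highest difference (0.46, SE 0.152, adjusted p = 0.0569), with both GMP arrays above both CMP arrays. A second probe set of Kif23 gave 0.03 in this comparison, and the count was 2 without CMP replicate 1, without GMP replicate 1 or without CMP replicate 2, and in the first 2 of these fits 1 rose and 1 fell. Aurkb rose after quantile normalisation (adjusted p = 0.0346; 1 member higher, 4 lower), without dim genes (adjusted p = 0.0293) and with the replicate block (adjusted p = 0.0492; 1 higher, 7 lower).

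The rise in pre-cDC was not shared by DNA replication genes. In pre-cDC against CDP, 31 of 35 replication genes fell and 2 rose, with a median log2 difference of -0.83, beside 18.8% of all genes that fell. Gins2 read 105 and 80.5 in pre-cDC, 345 and 328 in CDP, 276 and 255 in GMP and 295 and 284 in CMP. This gene of a subunit of the replicative helicase had the largest difference of the list (-1.57, SE 0.116, adjusted p = 3.3e-07), and pre-cDC stood below all other groups. Rfc4 read 193 and 138 in pre-cDC, 531 and 535 in CDP, 531 and 504 in GMP and 597 and 610.4 in CMP. The clamp loader gene Rfc4 (-1.53, SE 0.125, adjusted p = 7.78e-07) and the helicase gene Mcm3 (-1.37, SE 0.0959, adjusted p = 2e-07) fell likewise. The 2 that rose, named after their values were seen, were Dbf4 (0.43, SE 0.11, adjusted p = 0.0076), the activator of the origin-firing kinase CDC7, and the cyclin E1 gene Ccne1 (0.46, SE 0.162, adjusted p = 0.0441). In CDP against CMP 8 replication genes rose and 0 fell (median 0.18), beside 7.68% of all genes that rose and 6.75% that fell. In GMP against CMP 6 rose and 2 fell, beside 7.00% and 9.76% of all genes. The difference between the lists was not tested.

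Mitosis genes outside the 44 followed in part. Of 48 measured, 18 rose and 6 fell in pre-cDC against CDP (median 0.23), and 16 rose and 0 fell in CDP against CMP (median 0.27). Over all genes 14.4% rose and 18.8% fell in the first comparison, and 7.68% rose and 6.75% fell in the second. Aspm read 644 and 639.5 in pre-cDC, 284 and 287 in CDP, 137 and 201 in GMP and 266 and 216 in CMP. Aspm, a spindle pole gene, had the largest rise of that list (1.08, SE 0.144, adjusted p = 5.88e-05), followed by the spindle regulator gene Psrc1 (0.82, SE 0.12, adjusted p = 0.000139). Wee1 read 349 and 302 in pre-cDC, 648 and 696 in CDP, 790.2 and 807 in GMP and 744 and 818 in CMP. Wee1 encodes the kinase that restrains CDK1 and fell in pre-cDC against CDP (-0.98, SE 0.103, adjusted p = 7.13e-06). Of 8 condensin genes, which compact chromosomes, 3 rose and 0 fell in pre-cDC against CDP and 5 rose and 0 fell in CDP against CMP, among them Ncapg (0.41, SE 0.114, adjusted p = 0.0126 and 0.42, SE 0.114).

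**Figure D3:**
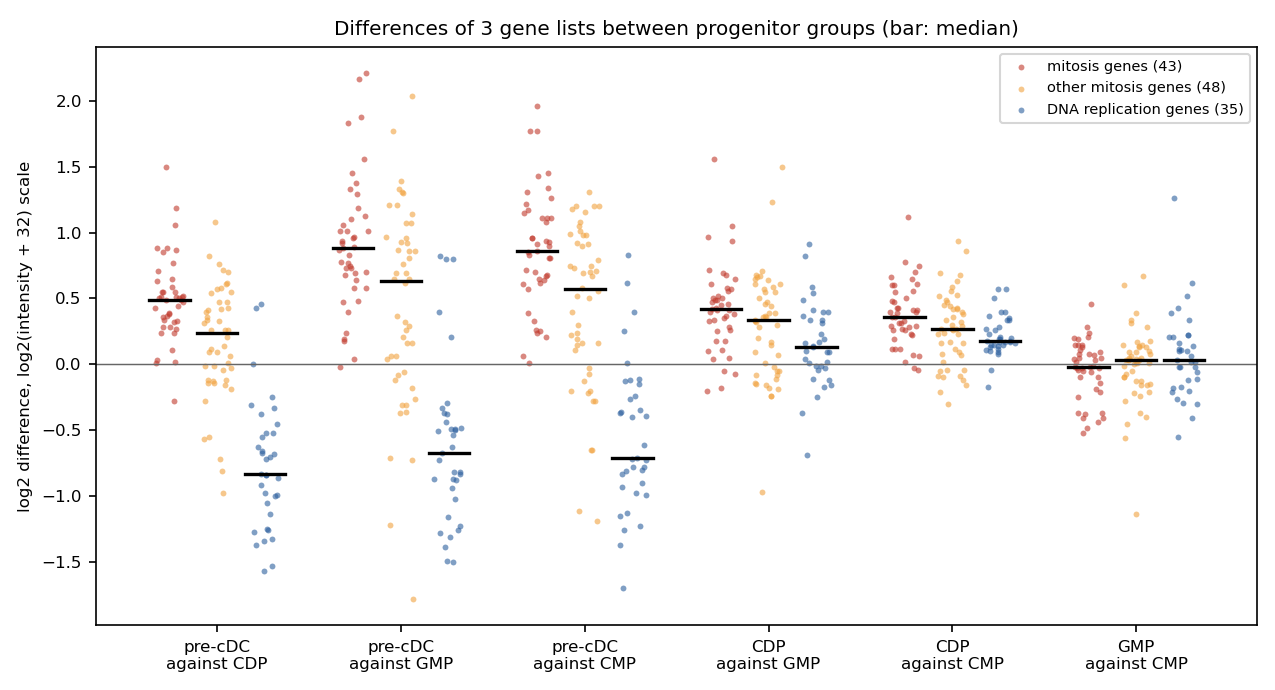
Log2 difference of each gene in 6 comparisons of progenitor groups, for the 43 mitosis genes, 48 other mitosis genes and 35 DNA replication genes; each point is 1 gene and bars are medians. In pre-cDC against CDP the medians were 0.49 for the mitosis genes, 0.23 for the other mitosis genes and -0.83 for the replication genes.

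By the presence of the CHR core, 20 of 26 members with it and 8 of 11 members without it rose in pre-cDC against CDP, with medians of 0.52 and 0.36. In CDP against CMP the counts were 16 of 26 and 4 of 11, with medians of 0.41 and 0.31. The ranges overlapped widely, from -0.28 to 1.19 with the core and from 0.01 to 1.50 without it in pre-cDC against CDP. Cdc25b, which rose most there, had no CHR core in its window, which surrounds a start 512 bases inside the gene.

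Markers of several cell types moved between the same groups. Monocyte markers summed to 10635 to 10942 in pre-cDC, 4922 to 5098 in CDP, 1926 to 2376 in GMP and 2381 to 2443 in CMP, and 6 of 7 rose in pre-cDC against CDP. Dendritic cell markers summed to 19646 to 21609 in pre-cDC, 4364 to 4830 in CDP, 243 to 253 in GMP and 1783 to 2025 in CMP, and 8 of 10 rose and 1 fell in pre-cDC against CDP. Both sets were thus highest where the mitosis genes were, and their part in the mitosis gene levels was not tested. The dendritic cell set includes Itgax and Flt3, the genes of CD11c and CD135, on which these groups were sorted. Its pattern is therefore set in part by the gates, as with Itgax in pre-cDC against CDP (3.22). The summed intensity of 9 erythroid markers was 70.7 to 87.2 in pre-cDC, 163 to 229 in CDP, 2753 to 5083 in GMP and 4486 to 6284 in CMP. The number above the array median was 1 of 9 in pre-cDC, 1 of 9 in CDP, 6 of 9 in GMP and 6 of 9 in CMP. The haemoglobin gene Hba-a1 was at 5.42 or below on all 8 progenitor arrays. Erythroid markers fell in 6 of 9 cases in CDP against CMP and in 1 of 9 in pre-cDC against CDP. The part of erythroid precursors in the mitosis gene levels of CMP and GMP was not tested. Neutrophil markers summed to 318 to 356 in pre-cDC, 358 to 470.0 in CDP, 3049 to 3583 in GMP and 265 to 303 in CMP. Most of the GMP sum came from S100a8 (mean 2156) and S100a9 (mean 786).

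Outside the members, the genes whose profile was closest to the members' mean over the 14 arrays of the 3 sets, each set centred on its own mean, were Cdca3 (Pearson r = 0.991), Spag5 (0.99), Ncapg (0.984), Foxm1 (0.981), Rhno1 (0.979), Dbf4, Sptbn4, Ckap2l, Tmpo and Arhgef39. These coefficients are descriptions over arrays that share groups and scaling. Foxm1 read 176 and 136 in pre-cDC, 112 and 83.6 in CDP, 49.6 and 52.2 in GMP and 55.9 and 52.7 in CMP. Foxm1, a transcription factor known for activating mitosis genes, rose in pre-cDC against CDP (0.54, SE 0.131, adjusted p = 0.00596) and in CDP against CMP (0.58, SE 0.131, adjusted p = 0.00945). Among the members themselves, r with the mean of the others reached 0.986 for Kif20a and was lowest for Pttg1 (0.41), Anln (0.783), Cdk1 (0.801), Cks2 (0.803) and Ttk (0.813).

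In the 7-day cultures most mitosis genes were highest in M-CSF adherent cells. These comparisons set 1 array against 1, so no test was made, and members are counted that reached a 2-fold difference of intensity + 32, provided that the higher value exceeded the array median. In GM-CSF CD11c+ cells against M-CSF adherent cells, 26 of 43 members were lower and 0 higher (median log2 difference -1.08; 4.29% of all genes lower, 5.32% higher). In GM-CSF adherent cells against M-CSF adherent cells, 11 were lower and 0 higher (median -0.82; 2.12% of all genes lower, 3.37% higher). Between CD11c+ and adherent cells of the GM-CSF culture, 0 were counted in either direction (median -0.21; 1.28% lower and 2.45% higher over all genes). With the mean of all probe sets of a gene the first count was 14 and the second 6, and with a pseudocount of 64 the second was 5.

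Spc25 read 384 in GM-CSF CD11c+ cells, 797 in GM-CSF adherent cells and 1452 in M-CSF adherent cells, and its log2 difference in CD11c+ cells against M-CSF adherent cells was the lowest of the members (-1.83). Top2a read 538 in GM-CSF CD11c+ cells, 1043 in GM-CSF adherent cells and 1845 in M-CSF adherent cells, with -1.72 in the same comparison. Both genes stood in the order CD11c+, GM-CSF adherent, M-CSF adherent from low to high. Ndc80 read 66.0 in GM-CSF CD11c+ cells, 81.4 in GM-CSF adherent cells and 258 in M-CSF adherent cells and had the lowest difference in GM-CSF adherent against M-CSF adherent cells (-1.36), followed by the survivin gene Birc5 (-1.31). Cdk1 read 1149 in GM-CSF CD11c+ cells, 1758 in GM-CSF adherent cells and 3179.5 in M-CSF adherent cells, and Mki67 read 466 in GM-CSF CD11c+ cells, 783 in GM-CSF adherent cells and 1021 in M-CSF adherent cells. Both were highest with M-CSF, and the difference of Mki67 between adherent cells stayed below 2-fold (-0.37).

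Securin departed from this order. Pttg1 read 2302 in GM-CSF CD11c+ cells, 1568 in GM-CSF adherent cells and 1693 in M-CSF adherent cells, so CD11c+ cells were the highest (0.54 against GM-CSF adherent cells). These values are from its chosen probe set, which departed from its second one in pre-cDC against GMP (0.18 and -0.39). Cks2 read 606 in GM-CSF CD11c+ cells, 487 in GM-CSF adherent cells and 597 in M-CSF adherent cells, with CD11c+ and M-CSF cells at nearly the same level. Cenpa read 1117 in GM-CSF CD11c+ cells, 982 in GM-CSF adherent cells and 1055 in M-CSF adherent cells, and Cdc25b read 229.8 in GM-CSF CD11c+ cells, 339 in GM-CSF adherent cells and 327 in M-CSF adherent cells. Cdc25b was the 1 member with a positive difference in GM-CSF adherent against M-CSF adherent cells (0.05). DNA replication genes went the same way as the mitosis genes here, with 23 of 35 lower in CD11c+ cells against M-CSF adherent cells (median -1.24). Neutrophil markers summed to 7823 in CD11c+ cells, 29256 in GM-CSF adherent cells and 10988 in M-CSF adherent cells, and their part in the differences was not tested.

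Monocytes at 0 h ranked the mitosis genes at a median percentile of 88.0 among all genes, and most were lower after 24 h with GM-CSF. At 24 h against 0 h, 41 of 43 members were at least 2-fold lower and 0 higher (median log2 difference -1.82; 7.29% of all genes lower, 6.22% higher). At 48 h against 24 h, 0 were counted in either direction (median 0.28; 2.75% of all genes higher, 0.890% lower), and at 48 h against 0 h 37 were lower and 0 higher (median -1.49; 6.19% lower, 7.40% higher). Mki67 read 12662 at 0 h, 3746 at 24 h and 4294 at 48 h. Ccnb2 read 7273 at 0 h, 999 at 24 h and 1749 at 48 h, the cyclin B2 gene having one of the lowest differences at 24 h (-2.82). Cdc25b read 1827 at 0 h, 225 at 24 h and 394 at 48 h (-2.85 at 24 h against 0 h). For all 3 genes the 48 h value stood above the 24 h value and far below that of 0 h.

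Racgap1 read 4079 at 0 h, 620.1 at 24 h and 624 at 48 h, with no return at 48 h (-2.65 at 48 h against 0 h, the lowest of the members). Kif11 read 2897 at 0 h, 476 at 24 h and 553 at 48 h, and Cdc25c read 436 at 0 h, 91.3 at 24 h and 71.6 at 48 h. Cdc25c had the lowest difference of the members at 48 h against 24 h (-0.25), and Kif11 differed by 0.20. Plk1 read 2732 at 0 h, 716 at 24 h and 1154 at 48 h and had a difference of 0.67 at 48 h against 24 h, where 37 of 43 members were positive and none reached 2-fold. Of all 18193 genes, 9663 were positive in that comparison, with a median of 0.02. The 2 members not counted at 24 h against 0 h were Anln and Pttg1. Anln read 6623 at 0 h, 4566 at 24 h and 5304 at 48 h (-0.53 at 24 h against 0 h). Pttg1 read 8370.3 at 0 h, 5728 at 24 h and 7332 at 48 h (-0.54), so the chosen probe sets of the anillin and securin genes stayed high through the culture.

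Other cell types' markers changed on these 3 arrays as well. The summed intensity of 8 neutrophil markers was 20162 at 0 h, 8473 at 24 h and 6911 at 48 h. They did not fall together, as 4 of the 8 were at least 2-fold lower and 2 higher at 24 h against 0 h. Of 9 erythroid markers, 8 lay above the array median at 0 h and 5 at 24 h and at 48 h, with sums of 2471, 2491 and 5933. At 24 h against 0 h, 4 of the 9 were at least 2-fold lower and 1 higher (median log2 difference -0.97). At 48 h against 24 h, 1 was higher (5.03) and 0 lower, with a median of 0.08, so the sums do not speak for most of these markers. Dendritic cell markers summed to 11183 at 0 h, 90237 at 24 h and 93724 at 48 h. The part of other cells in the 0 h sample in its mitosis gene levels was not tested. DNA replication genes were lower in 19 of 35 cases at 24 h against 0 h (median -1.13).

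**Figure D4:**
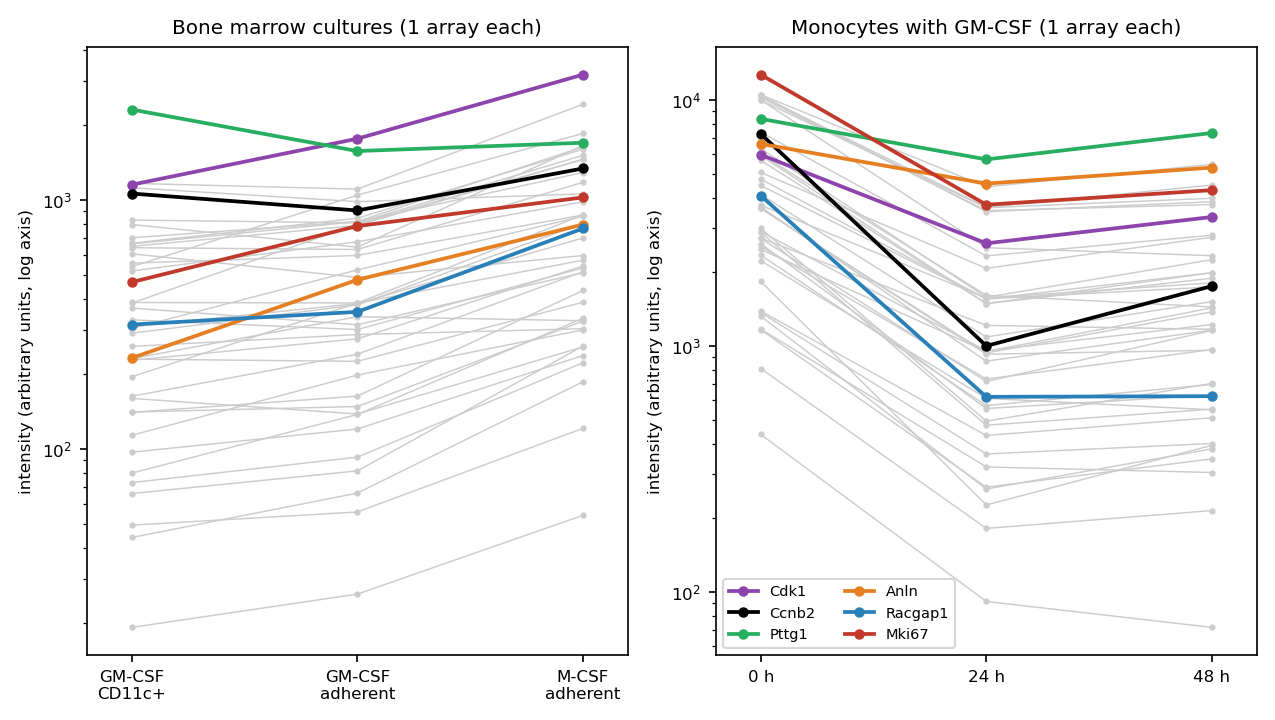
Intensity of the 43 mitosis genes (log axis, arbitrary units) on the 3 culture arrays and the 3 monocyte arrays, 1 line per gene and 1 array per condition; 6 genes are coloured and the others grey. Most lines are highest with M-CSF and at 0 h, while Pttg1 reads 2302 in GM-CSF CD11c+ cells and 7332 in monocytes at 48 h.

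The array titled Spl stood apart from the bone marrow pre-cDC arrays. Since its scale differs, each gene was placed by its percentile among all genes of its own array. The members' median percentile was 42.2 on the Spl array and 92.8 and 91.4 on the bone marrow pre-cDC arrays. Only 20 of 43 lay above the array median of the Spl array, against 43 on both bone marrow arrays. Mki67 read 330.3 and Cdk1 71.8 on the Spl array, whose median was 74.17. Cks2 (2309.7), Cenpa (1504) and Pttg1 (1092) were the 3 highest-ranked members, at percentiles of 96.7, 94.2 and 91.2. Their other probe sets read 2147 for Cks2, 673 and 41.0 for Cenpa, and 317 and 112 for Pttg1 on this array, so that only that of Cks2 was close to the chosen one. DNA replication genes had a median percentile of 60.9 on the Spl array and 89.0 and 87.4 on the bone marrow pre-cDC arrays. With 1 array of another scale, tissue and processing cannot be told apart.

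**Figure D5:**
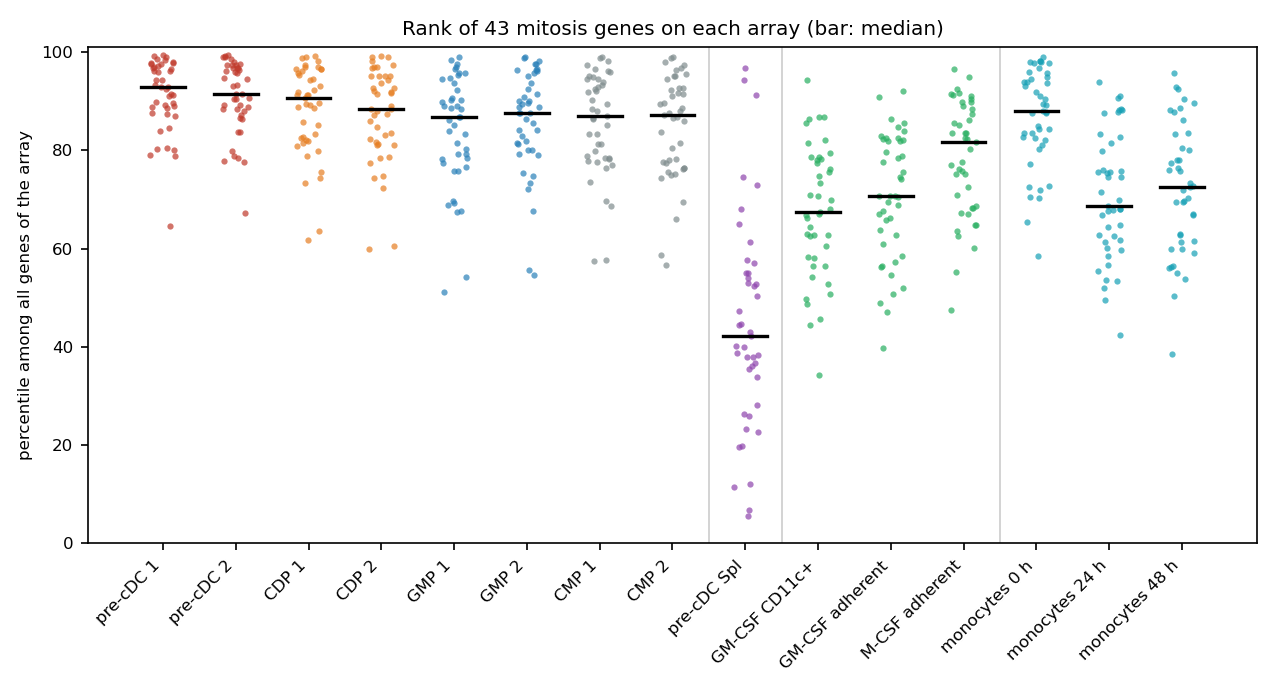
Percentile of each of 43 mitosis genes among all genes of its array, on all 15 arrays; each point is 1 gene, bars are medians, and vertical lines separate the sets with different scales. Medians are 86.7 to 92.8 on the progenitor arrays, 42.2 on the Spl array, 67.4 to 81.6 on the culture arrays and 68.7 to 88.0 on the monocyte arrays.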

How the data were processed

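RNA of mouse myeloid cells was labelled with the 3' IVT Express kit (Affymetrix), per the labels' protocols, and hybridised to 15 arrays. The authors deposited linear intensities, 1 per probe set and array; background correction, summarisation and scaling are not given in the sources used here. Of 45037 probe sets, 34945 carried 1 gene, 932 several and 9160 none; the first class gave 18193 genes, of which 18031 matched RefSeq by gene ID. Values were taken as log2(intensity + 32). Linear models over the 8 progenitor arrays in 4 groups were fitted in R 4.3.3 with limma 3.58.1, whose moderated variances followed an intensity trend (4 residual degrees of freedom, 12.6 in all). Two-sided p-values were adjusted by Benjamini and Hochberg's method for the 18193 genes, and 0.05 was the threshold. The fit was tested on simulated data. Tables and figures used Python 3.11.15, pandas 2.3.3 and matplotlib 3.10.9. The log2 values of 2 arrays of a group correlated across genes at 0.9953 to 0.9968. Single arrays were compared by a 2-fold difference. Members and gene lists were chosen with earlier results of these data known. Named members were the brightest of each role, the 3 largest changes in each direction per comparison (2 with single arrays), Mki67, Top2a and Cdk1; from each other list, up to 3 changes were named. Deviations of equally numbered arrays correlated at -0.0222 to 0.181 between groups, so the numbers were not taken as pairs. Alternatives were pseudocounts of 16 and 64, quantile normalisation, a filter on dim genes, no trend, the mean of all probe sets, each array left out, a replicate block, and, chosen after seeing the data, probe sets without an x or s suffix.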

Additional observations from a re-analysis of the deposited data

How the results depend on the processing

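Each tested count of members stayed within 1.5 times under pseudocounts of 16 and 64, quantile normalisation, the dim-gene filter, no trend, the mean of all probe sets and probe sets without an x or s suffix. Leaving out 1 array gave 2 to 7 called members in GMP against CMP, 5 to 21 in CDP against CMP, 12 to 27 in CDP against GMP, 37 to 39 in pre-cDC against CMP, 36 to 39 in pre-cDC against GMP and 21 to 33 in pre-cDC against CDP, with fewer samples in each fit. The replicate block gave 8 called in GMP against CMP (1 higher, 7 lower), 23 in CDP against CMP, 29 in CDP against GMP, 39 in pre-cDC against CMP, 39 in pre-cDC against GMP and 33 in pre-cDC against CDP. In GMP against CMP quantile normalisation left 1 higher and 4 lower. With single arrays, the 2-fold count of GM-CSF adherent against M-CSF adherent became 5 (pseudocount 64), 6 (mean of all probe sets) and 0 (at least 4-fold). CD11c+ against GM-CSF adherent became 1 (pseudocount 16) and 1 (quantile), and CD11c+ against M-CSF adherent 14 (mean of all probe sets) and 0 (4-fold). At 4-fold, monocytes gave 9 at 24 h and 8 at 48 h against 0 h. Of the differences of single members named by size, recomputed under these alternatives, 279 kept their call and 9 lost it (Kif18a, Nusap1 and Kif23 in GMP against CMP), and 0 reversed. Otherwise the cause was not tested. For low intensities such as those of Cdc25c, the added 32 shrinks differences.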

Other observations

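Other cell cycle lists held genes that rose and genes that fell in pre-cDC against CDP, where 14.4% of all genes rose and 18.8% fell. Of 13 D cyclin and CDK inhibitor genes, 5 rose and 5 fell in pre-cDC against CDP. Ccnd2 read 213 and 156 in pre-cDC, 1848 and 2030.2 in CDP, 937 and 956 in GMP and 1425 and 1529 in CMP. The cyclin D2 gene Ccnd2 (-3.20, SE 0.118, adjusted p = 7.69e-10) and its kinase partner gene Cdk6 (-2.66, SE 0.0867, adjusted p = 2.68e-10) fell in pre-cDC, and the inhibitor gene Cdkn2d rose (1.59, SE 0.0994, adjusted p = 7.3e-08). Cdk6 read 515 and 524 in pre-cDC, 3221 and 3718 in CDP, 3279.6 and 3659 in GMP and 3099 and 3253 in CMP. Cdkn2d read 1167 and 1197 in pre-cDC, 386 and 358 in CDP, 122 and 117 in GMP and 145 and 141 in CMP. For these 3 genes pre-cDC did not overlap with any other group. Of 18 transcription regulators of the cell cycle, 4 rose and 6 fell in pre-cDC against CDP, with the E2F partner gene Tfdp1 (-1.24, SE 0.0863, adjusted p = 1.86e-07) and E2f3 (-1.26, SE 0.108, adjusted p = 1.2e-06) lower and the retinoblastoma gene Rb1 (1.03, SE 0.0999, adjusted p = 3.77e-06) higher. Of 13 listed genes of the anaphase-promoting complex, 2 rose and 5 fell. Fzr1 was 1 of the 2 (0.56, SE 0.148, adjusted p = 0.00967) and encodes an activator like CDC20, not a core subunit. The constitutive centromere network, which sits below the outer kinetochore, rose in 2 and fell in 7 of 14 cases. Several of these shares lie near those of all genes, and nothing particular to the lists was tested.

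Other probe sets of the members mostly moved with the chosen one. Of those above the array median, for members called, 36 of 38 had the same direction in pre-cDC against CDP, 40 of 43 in pre-cDC against CMP, 37 of 40 in pre-cDC against GMP, 24 of 25 in CDP against CMP, 24 of 26 in CDP against GMP and 2 of 3 in GMP against CMP. The chosen probe set of 10 members has an x or s suffix, with which Affymetrix marks probes shared with other sequences. With probe sets lacking that suffix, 24 members rose and 1 fell in CDP against GMP, 39 rose and 1 fell in pre-cDC against GMP, and 30 rose in pre-cDC against CDP. The 1 that fell was Pttg1 in both cases. Its next probe set gave -0.49 in CDP against GMP (adjusted p = 0.00372) and -0.39 in pre-cDC against GMP (adjusted p = 0.00812), where the chosen one gave -0.18 and 0.18. A second, dim probe set of Anln differed by -0.09 in pre-cDC against CMP, where the chosen one gave 0.86.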
